A study of Mus musculus with 9 samples.

Results

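The tissue inhibitors of metalloproteinases (TIMPs) and their membrane-bound counterpart Reck were examined in lung fibroblasts of aged mice with and without bleomycin injury. The genes were chosen by name, and all 5 of them (Timp1, Timp2, Timp3, Timp4, and Reck) were found among the 43346 genes of the deposited RNA-Seq table. The fibroblasts came from Col1a1-GFP mice, in which the collagen I promoter drives GFP, and were sorted as GFP+, CD45-, CD31-, and EpCAM- cells, which leaves out hematopoietic, endothelial, and epithelial cells. Aged sham mice (n = 4) received a single intratracheal dose of saline and aged bleo mice (n = 5) a single intratracheal dose of bleomycin, and lungs were taken on day 30. The sample labels give an age of 72 weeks, and the treatment description gives 18 months for both groups, which share the reporter. The labels give as many lungs as libraries, so each library was taken as 1 mouse and p-values measure the spread between mice, and young mice are not part of these data as analysed here.

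Matrix metalloproteinases (MMPs) are zinc enzymes that cut collagen, elastin, and other matrix proteins, and their activity is held in check by TIMPs, which plug the catalytic site. TIMPs are secreted. Timp1 inhibits most soluble MMPs but is a weak inhibitor of the membrane-type enzymes, Timp2 inhibits MMPs and also helps Mmp14 to activate pro-Mmp2, Timp3 stays bound to the matrix and inhibits several ADAM and ADAMTS enzymes besides MMPs, and Timp4 is best known from heart and fat. Reck is anchored in the cell membrane, restrains Mmp2, Mmp9, and Mmp14, and is a coreceptor for Wnt7 ligands together with Adgra2.

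The part of a TIMP that enters the catalytic site is the start of the mature protein, whose first cysteine binds the zinc of the enzyme. The coding sequence there is shown for the 4 TIMPs, because it is the inhibitory end that they have in common and because it shows how far their transcripts differ as templates for read assignment. Each line holds 30 bases of the longest coding transcript (GENCODE M21, GRCm38), starting at the first 2 cysteine codons that are separated by 1 other codon, which are in capitals.
Timp1 (chrX:20871111-20871140, plus strand): TGTagcTGTgccccaccccacccacagaca
Timp2 (chr11:118354983-118355012, minus strand): TGCagcTGCtccccggtgcacccgcaacag
Timp3 (chr10:86300923-86300952, plus strand): TGCacaTGCtctcccagccatccccaggat
Timp4 (chr6:115251662-115251691, minus strand): TGCagcTGTgcgcctgcgcacccccagcag
The first of these cysteine codons was codon 25 in Timp1, 27 in Timp2, 24 in Timp3, and 30 in Timp4. The coding sequences held 12 cysteine codons in Timp1, Timp2, and Timp4 and 13 in Timp3. Between pairs of TIMPs, the aligned coding bases were identical at 58.1% (Timp1 and Timp3) to 65.4% (Timp3 and Timp4), and no stretch of 31 bases was shared by any pair among the 5 transcripts, Reck included. Reck was a far longer gene product, with 2913 coding bases, 88 cysteine codons, and 21 exons, against 615 to 672 coding bases in the TIMPs.

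Sequencing depth was similar in both groups. Total counts ran from 49921946 to 62370512 in the aged sham libraries and from 53833507 to 68260600 in the aged bleo libraries, and the 3 counts that a count of 0 allows corresponded to 0.0409 to 0.0605 CPM (counts scaled to library size, with TMM normalization). Of 10 pan-fibroblast markers, all tested, 5 were called higher and 1 lower (median log2 fold change 0.36), beside 12.3% and 11.5% of all tested genes. Their summed CPM was 32305 to 40310 in aged sham and 66266 to 88446 in aged bleo libraries, with Col1a1, Col1a2, Col3a1, and Fn1 rising by log2 fold changes of 1.02 to 2.33. The other members did not follow the sum throughout, since Dcn was called lower (log2 fold change -1.54) and Pdgfra, Lum, Vim, and Thy1 were not called (-0.43 to 0.07). Transcripts of gated-out cells were present: the CD45 gene Ptprc had 87.0 ± 59.1 CPM in the aged sham group (SD, n = 4) and 65.0 ± 66.3 CPM in the aged bleo group (n = 5), the CD31 gene Pecam1 at 6.12 ± 0.510 and 4.34 ± 1.45 CPM, and Epcam at 0.593 ± 0.141 and 0.668 ± 0.316 CPM.

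To ask how the inhibitors differ between injured and uninjured aged lungs, aged bleo was compared with aged sham with the quasi-likelihood test of edgeR on the deposited counts. A gene entered the test when its count averaged 25 or more over the libraries, and it was called at a false discovery rate (FDR, the Benjamini-Hochberg adjusted p over all 16877 genes tested) under 0.10 and a fold change over 1.5. All 5 genes passed the count filter, and 4 of them were called, where 23.8% of all tested genes were. Timp1 was called higher, and Timp2, Timp3, and Reck were called lower, beside 12.3% and 11.5% of all genes in these directions. The groups did not overlap in these 4 genes, as they did not in 32.2% of all tested genes, of which 16.1% had every aged bleo mouse above and 16.1% every aged bleo mouse below the aged sham mice. Timp4 was not called. The samples are bulk RNA, in which fewer cells of a type and less RNA per cell cannot be told apart.

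Timp1 (ENSMUSG00000001131, chrX:20870166-20874735, plus strand), the injury-inducible member of the family, was the only one that rose. Its levels were 55.9, 56.8, 62.7, and 53.9 CPM in aged sham mice 1 to 4, and 354, 164, 318, 585, and 509.5 CPM in aged bleo mice 1 to 5. Every aged bleo mouse was above every aged sham mouse, with mouse 4 highest and mouse 2 lowest. The mean rose from 57.3 ± 3.81 CPM (SD, n = 4) to 386 ± 166 CPM (n = 5), a log2 fold change of 2.75 (SE 0.33, edgeR FDR = 5.19e-04). Timp1 took place 261 among the 2082 genes called higher when these were ordered by fitted fold change. The spread between mice differed as well, since the highest aged sham mouse had 1.16 times the level of the lowest, and the highest aged bleo mouse 3.57 times.

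Timp2 (ENSMUSG00000017466, chr11:118301069-118355740, minus strand) was one of the 2 most abundant members in aged sham mice, together with Timp3. It was at 3513, 3861, 3718, and 4057 CPM in aged sham mice 1 to 4, and at 2268, 2633, 2204, 1289, and 1422 CPM in aged bleo mice 1 to 5. All aged bleo mice were below all aged sham mice, with mice 4 and 5 lowest. The mean fell from 3787 ± 229.8 CPM (SD, n = 4) to 1963 ± 581 CPM (n = 5), a log2 fold change of -0.95 (SE 0.22, edgeR FDR = 0.0102), which is 1.93-fold lower.

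Timp3 (ENSMUSG00000020044, chr10:86300372-86349506, plus strand), the matrix-bound member, fell by more. Aged sham mice 1 to 4 were at 4577, 4755, 5138, and 4638 CPM, and aged bleo mice 1 to 5 at 2491, 3163, 2114, 1014, and 1387 CPM. The groups were separate, and the aged bleo mice stood in the same order as for Timp2, from mouse 2 through 1, 3, and 5 down to mouse 4. The log2 fold change was -1.23 (SE 0.30, edgeR FDR = 0.0127), from 4777 ± 252 CPM (SD, n = 4) to 2034 ± 858 CPM (n = 5).

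Reck (ENSMUSG00000028476, chr4:43875530-43944806, plus strand), the membrane-anchored inhibitor, was at 232, 217, 228, and 212 CPM in aged sham mice 1 to 4. Aged bleo mice 1 to 5 were at 111, 134, 102, 50.1, and 66.6 CPM, all below the lowest aged sham mouse and again in the order 2, 1, 3, 5, 4. The mean of 222 ± 9.19 CPM (SD, n = 4) compared with 92.8 ± 34.1 CPM (n = 5), a log2 fold change of -1.26 (SE 0.25, edgeR FDR = 0.00576), which is 2.40-fold lower.

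Timp4 (ENSMUSG00000030317, chr6:115245616-115251849, minus strand) was barely detected, with 69 to 116 counts per aged sham library and 40 to 90 counts per aged bleo library. It was at 1.87, 1.49, 2.03, and 1.39 CPM in aged sham mice 1 to 4, and at 1.67, 1.23, 1.06, 0.546, and 0.970 CPM in aged bleo mice 1 to 5. The groups overlapped, since aged bleo mouse 1 was above aged sham mice 2 and 4. The log2 fold change was -0.63 (SE 0.29, edgeR FDR = 0.122). With aged bleo mouse 1 left out, the log2 fold change was -0.83 and the edgeR FDR 0.0487, which passes the threshold, while the FDR ranged from 0.128 to 0.250 when any other library was left out.

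**Figure D1:**
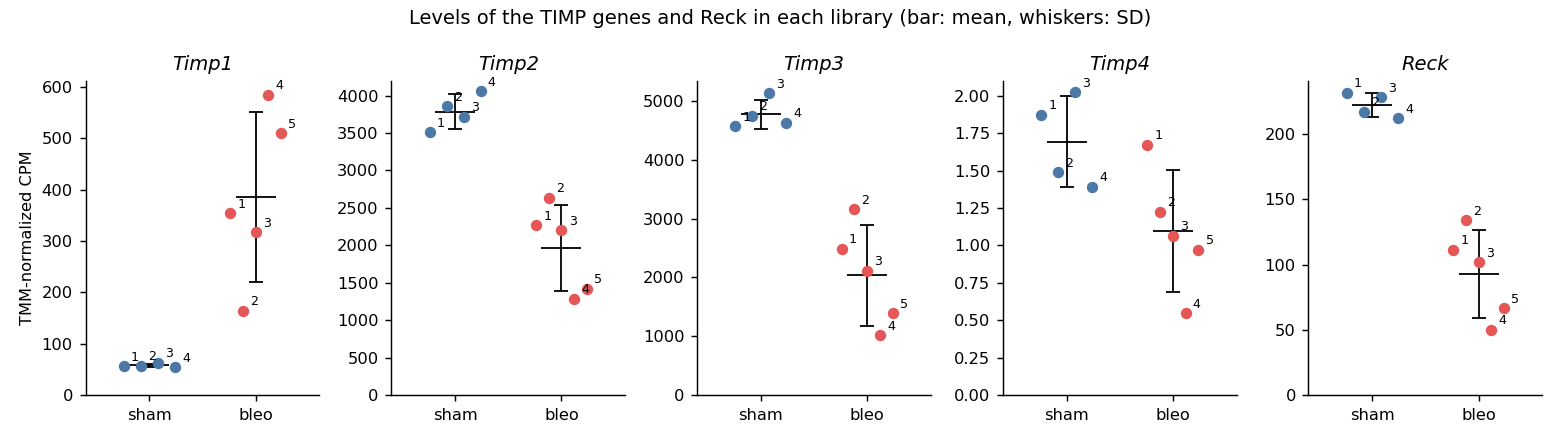
TMM-normalized CPM (vertical axis, linear and starting at 0, 1 scale per gene) of Timp1, Timp2, Timp3, Timp4, and Reck in 4 aged sham (blue) and 5 aged bleo (red) libraries, numbered by mouse, with the mean and SD of each group. Timp1 is higher in every aged bleo mouse, Timp2, Timp3, and Reck are lower in every aged bleo mouse, and Timp4 overlaps between the groups.

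The order of the aged bleo mice ran the opposite way for Timp1 and for the other members at its ends. Mouse 4, which had the highest Timp1 level, had the lowest levels of Timp2, Timp3, Timp4, and Reck, and mouse 2, which had the lowest Timp1 level, had the highest levels of Timp2, Timp3, and Reck. The coefficient of variation between aged bleo mice was 43.0% for Timp1, 29.6% for Timp2, 42.2% for Timp3, 37.4% for Timp4, and 36.7% for Reck. Between aged sham mice it was 6.64% for Timp1, 6.07% for Timp2, 5.27% for Timp3, 17.9% for Timp4, and 4.13% for Reck.

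Levels of different genes were compared per length, from the deposited FPKM. In the 4 aged sham mice the order was the same throughout, with Timp2 at 377 to 427 FPKM, Timp3 at 234 to 267 FPKM, Timp1 at 24.9 to 29.9 FPKM, Reck at 18.2 to 20.3 FPKM, and Timp4 at 0.403 to 0.606 FPKM, and no neighbours in this order overlapped. In the aged bleo mice Timp2 was at 149 to 284 FPKM, Timp1 at 77.3 to 296 FPKM, and Timp3 at 55.9 to 163 FPKM, so that these 3 genes overlapped in their ranges, whereas Reck (4.71 to 11.8 FPKM) and Timp4 (0.173 to 0.511 FPKM) stayed below them. By FPKM, Timp1 was below Timp3 in mouse 2, lay between Timp3 and Timp2 in mice 1 and 3, and exceeded both in mice 4 and 5. The order of Timp2 over Timp3 in aged sham, and that of Timp1 over Timp3 in aged bleo mice 1 and 3, depended on the gene length used. The deposited length of Timp3 is 8144 bases and its longest coding transcript has 4722. Per kilobase of the longest coding transcript, Timp2 was at 1021 ± 61.9 CPM and Timp3 at 1012 ± 53.3 CPM in aged sham (SD, n = 4), with overlapping ranges. In aged bleo, Timp1 was at 437 ± 188 CPM and Timp3 at 431 ± 182 CPM on this scale (SD, n = 5). Timp1 was then below Timp3 in aged bleo mice 1 to 3. FPKM and CPM per kilobase rest on different library totals and were not compared with each other. Timp4 has a deposited length of 1416 bases and a GENCODE M21 transcript of 5496 bases, but it was the lowest of the 5 genes with either length.

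Summed over the 4 TIMPs, the FPKM in aged sham mice 1 to 4 was 639, 698, 702, and 686, and in aged bleo mice 1 to 5 it was 557, 524, 494, 500.3, and 479.9. Every aged bleo mouse was below every aged sham mouse, and the mean was 681 ± 28.7 FPKM (SD, n = 4) against 511 ± 30.2 FPKM (n = 5). The makeup of that sum differed far more between mice than its size. Timp1 made up 4.12%, 3.90%, 4.26%, and 3.62% of the summed TIMP FPKM in aged sham mice 1 to 4, and 30.9%, 14.8%, 30.2%, 59.1%, and 51.7% in aged bleo mice 1 to 5. Timp2 went from a mean share of 59.8% to 41.9% and Timp3 from 36.1% to 20.7%. The FPKM ratio of Timp1 to Timp2 was 0.0582 to 0.0740 in aged sham and 0.273 to 1.99 in aged bleo, and it was above 1 in aged bleo mice 4 and 5. These sums and shares are descriptions of the same values as above and were not tested. They rest on the deposited lengths, with 8144 bases for Timp3, and would differ with the lengths of the coding transcripts.

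**Figure D2:**
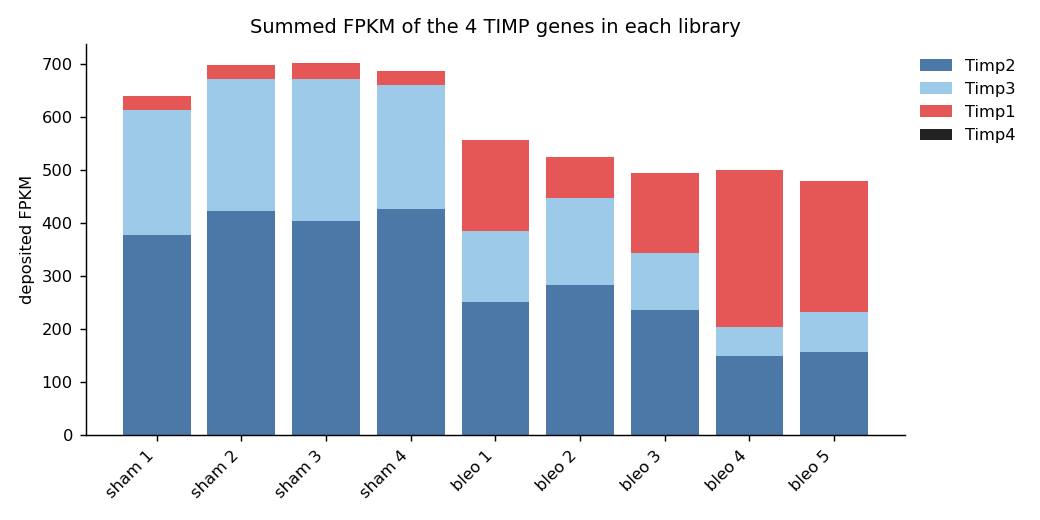
Deposited FPKM (vertical axis, starting at 0) of the 4 TIMP genes stacked for each of the 9 libraries (horizontal axis). Timp1 (red) is 3.62% to 4.26% of the stack in aged sham and 14.8% to 59.1% in aged bleo libraries, and Timp4 is too low to be visible.

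Timp1, Timp3, and Timp4 each lie inside a synapsin gene on the opposite strand, and the kit used for these libraries does not mark strand, so the host genes were examined beside them. Syn3 (chr10:86055125-86498896, minus strand) shares 1733 exon bases with the end of Timp3 (chr10:86347774-86349506). Shared exon bases in this paragraph are those of GENCODE M21, and the annotation release used for counting is not given. Syn3 encodes a neuronal synaptic vesicle protein, and its mean count was 112533 in aged sham and 46856 in aged bleo, with a log2 fold change of -1.31 (SE 0.27, edgeR FDR = 0.00700). The CPM ratio of Syn3 to Timp3 was nearly constant, at 0.387 to 0.459 in aged sham and 0.384 to 0.448 in aged bleo. Without strand, reads of the shared exon bases cannot be told apart between the genes. How such reads were assigned is not given in the sources used here. Whether the Syn3 value measures Syn3 on its own is therefore not known, and the level and share of Timp3 carry the same limit. Syn1 (chrX:20860511-20921004, minus strand) contains Timp1 without any shared exon base and rose by a log2 fold change of 2.03 (SE 0.26, edgeR FDR = 7.04e-04), from 2.17 ± 0.358 CPM to 8.86 ± 2.99 CPM, with a mean CPM ratio to Timp1 of 0.0382 in aged sham and 0.0244 in aged bleo. Syn2 (plus strand) contains Timp4, with 90 shared exon bases in GENCODE M21 (chr6:115244146-115244235) that lie outside the deposited Timp4 interval, and was called higher, from 7.72 ± 2.57 to 16.4 ± 4.78 CPM (log2 fold change 1.09, SE 0.28, edgeR FDR = 0.0167), opposite in sign to the Timp4 value. BC100451, inside Timp2 on the same strand without shared exon bases, had mean counts of 95.5 and 63.6 and was called lower (log2 fold change -0.65, SE 0.21, edgeR FDR = 0.0404). Gm17482 and Gm27265, which overlap Timp4 and Reck, had mean counts of at most 2.5 in either group and were not tested.

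Timp3 and Reck followed each other most closely among the members. Likeness was measured as the root mean square difference of log2 CPM over the 9 libraries, after centring each gene on its mean, among 15269 tested genes with at least 1 CPM on average. The gene nearest to Timp3 was Reck, and the gene nearest to Reck was Timp3, with a difference of 0.0771. The next nearest to Timp3 were Syn3 (0.0852), which shares exon bases with it, and Gnao1 (0.0858), a G protein subunit. The next nearest to Reck were Arhgef10 (0.0854) and Fibin (0.0863). Timp2 was nearest to Ms4a4d (0.0365), Cpq (0.0582), a carboxypeptidase, and Cyp2j9 (0.0675), while Reck and Timp3 took places 396 and 549 for Timp2. Timp1 was nearest to Chn1 (0.177), a Rac GTPase-activating protein, AI115009 (0.181), and Nkain1 (0.198). For Timp4, at its low counts, the nearest genes were Zfp235 (0.167), Abcg4 (0.169), and B3galt1 (0.177). All of these genes share the 9 libraries and the difference between the groups, so likeness was not tested.

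The promoters of Timp1, which rose, and of Timp2, Timp3, and Reck, which fell together, are shown to set their base composition side by side. They run from 250 bases before to 50 bases after the RefSeq start (GRCm38.p6), read along the gene, and the capitals mark GC boxes (GGGCGG on either strand, so that CCGCCC is the other strand) and, in Timp1 alone, TGAGTAA, an AP-1-like element.
Timp1 (chrX:20869916-20870215, plus strand): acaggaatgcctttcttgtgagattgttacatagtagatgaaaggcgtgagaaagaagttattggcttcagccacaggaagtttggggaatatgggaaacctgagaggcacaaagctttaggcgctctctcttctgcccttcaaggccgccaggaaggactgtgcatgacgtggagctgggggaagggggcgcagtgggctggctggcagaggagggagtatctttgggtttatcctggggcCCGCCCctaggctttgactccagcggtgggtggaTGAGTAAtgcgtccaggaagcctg
Timp2 (chr11:118355362-118355661, minus strand): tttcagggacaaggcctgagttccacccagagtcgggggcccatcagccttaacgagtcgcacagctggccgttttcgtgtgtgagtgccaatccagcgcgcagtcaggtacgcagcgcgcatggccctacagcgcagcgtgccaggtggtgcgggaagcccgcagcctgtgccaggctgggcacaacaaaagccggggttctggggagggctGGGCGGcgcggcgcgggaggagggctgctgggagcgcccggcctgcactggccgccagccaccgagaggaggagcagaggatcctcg
Timp3 (chr10:86300162-86300461, plus strand): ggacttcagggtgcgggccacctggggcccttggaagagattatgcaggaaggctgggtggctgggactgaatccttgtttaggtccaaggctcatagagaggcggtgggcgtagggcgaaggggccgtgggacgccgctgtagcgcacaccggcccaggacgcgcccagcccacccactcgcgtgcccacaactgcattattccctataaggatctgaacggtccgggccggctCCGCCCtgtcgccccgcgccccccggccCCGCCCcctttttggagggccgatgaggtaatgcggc
Reck (chr4:43875280-43875579, plus strand): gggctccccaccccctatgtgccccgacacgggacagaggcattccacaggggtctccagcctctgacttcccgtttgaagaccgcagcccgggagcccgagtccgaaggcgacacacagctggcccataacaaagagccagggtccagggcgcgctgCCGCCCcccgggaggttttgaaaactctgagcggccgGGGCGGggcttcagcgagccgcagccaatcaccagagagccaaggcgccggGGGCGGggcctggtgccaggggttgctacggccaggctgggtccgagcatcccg
The 3 promoters of the genes that fell were rich in CpG, with 25 CpG in Timp2, 24 in Timp3, and 23 in Reck, against a median of 7 over 32851 promoters of the same length, where 18.4%, 20.0%, and 21.5% held as many. The Timp1 promoter held 8 CpG and that of Timp4 2. The shares are over all promoters and not over the tested genes. A link of base composition to the direction of change was not tested. The GC content was 68.7% for Timp2, 67.0% for Timp3, 69.3% for Reck, 55.0% for Timp1, and 53.3% for Timp4. GC boxes occurred once in Timp1 and Timp2, at 2 places in Timp3, at 3 places in Reck, and not in Timp4, and 35.7% of all promoters held at least 1. The TGAGTAA of Timp1 began 26 bases after the start, and 2.68% of all promoters held this element on either strand. None of the 5 windows held TGANTCA (AP-1, 7.81% of all promoters), TGTGGT (RUNX, 16.8%), TTCNNNGAA (STAT, 8.30%), TGGAAA (NFAT, 21.4%), or TATAAA (13.6%) on either strand. The motifs do not overlap each other at the places named, they were picked with the promoters in view, and a match is a description of the letters.

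The enzymes that the inhibitors hold in check moved in both directions. Of 23 MMPs, 18 passed the count filter, and 6 were called higher and 2 lower, beside 12.3% and 11.5% of all tested genes. The median log2 fold change of the 18 was 0.22 beside 0.00636 over all tested genes. Mmp14, the membrane-type enzyme that works with Timp2 and is restrained by Reck, rose from 414 ± 32.0 to 1025 ± 159.6 CPM (log2 fold change 1.31, SE 0.13, edgeR FDR = 2.13e-04), with all aged bleo mice above all aged sham mice. Mmp12, a macrophage elastase, rose from 0.485 ± 0.140 to 47.3 ± 17.1 CPM (log2 fold change 6.61). The collagenase Mmp13 went from 0.122 ± 0.0366 to 12.0 ± 2.65 CPM (log2 fold change 6.59) and the stromelysin Mmp10 from 0.180 ± 0.108 to 7.28 ± 1.68 CPM (log2 fold change 5.32). Mmp13 and Mmp10 passed the count filter only through the aged bleo libraries, so they had to differ to be tested. They are among the 6 called higher and enter the median. With a filter of at least 10 counts in every library, 4 MMPs were called higher and 2 lower. Mmp27 (log2 fold change -1.62, edgeR FDR = 0.0214) and the membrane-type Mmp16 (-1.20, edgeR FDR = 0.0232) were called lower. Mmp2, the gelatinase and the most abundant MMP by FPKM in aged sham, was at 1164 ± 126 and 1389 ± 360.5 CPM (log2 fold change 0.26, SE 0.20, edgeR FDR = 0.344), and the gelatinase Mmp9 at 44.3 ± 33.5 and 33.6 ± 29.5 CPM (log2 fold change -0.40, SE 0.60, edgeR FDR = 0.638). Neither gelatinase was called.

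**Figure D3:**
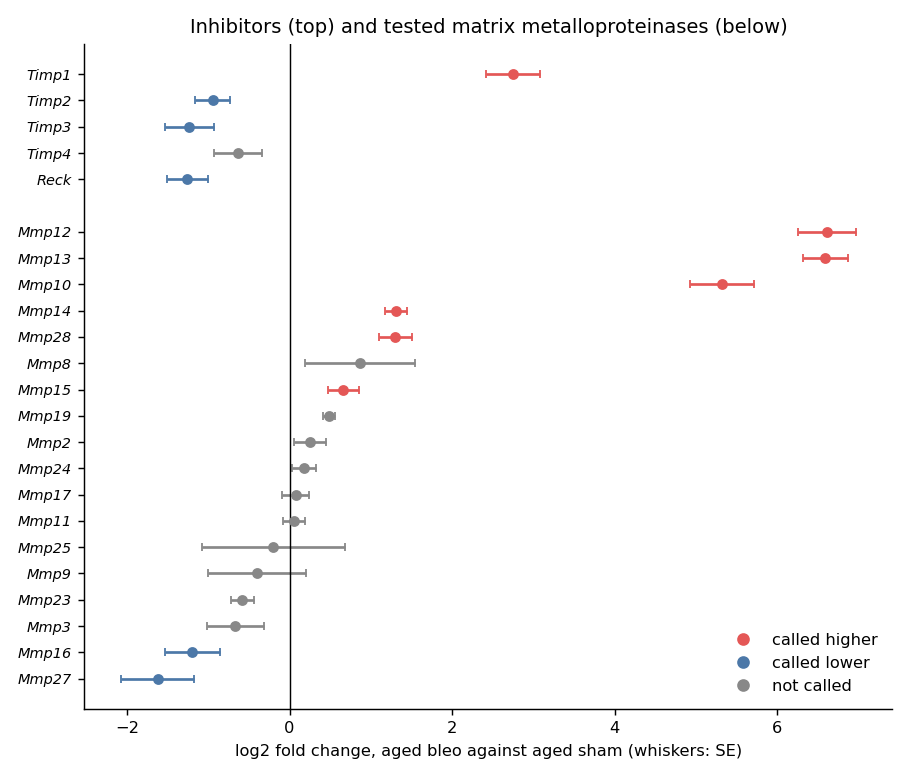
Fitted log2 fold change of aged bleo against aged sham (horizontal axis, whiskers are the SE) for the 5 inhibitors and the 18 tested MMPs, coloured by call. Timp1 is the only inhibitor to the right of 0, while Mmp12, Mmp13, and Mmp10 lie at 5.32 or more. Mmp13 and Mmp10 passed the count filter only through the aged bleo libraries.

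Set against these enzymes, the balance of transcripts was different in aged bleo mice. The FPKM summed over the 4 TIMPs was 1.97 ± 0.179 times that summed over the 23 MMPs in aged sham (SD, n = 4) and 1.09 ± 0.0816 times in aged bleo (n = 5), and the groups did not overlap (1.87 to 2.24 and 1.01 to 1.23). The FPKM ratio of Timp2 to Mmp14 was 5.88, 5.78, 6.57, and 6.21 in aged sham mice 1 to 4, and 1.42, 2.24, 1.45, 0.698, and 0.921 in aged bleo mice 1 to 5. Timp2 was above Mmp14 in 7 of the 9 libraries and below it in aged bleo mice 4 and 5. The ratio of Reck to Mmp14 was 0.265 to 0.329 in aged sham and 0.0221 to 0.0929 in aged bleo. These are ratios of RNA per length, not of proteins, and they were not tested.

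**Figure D4:**
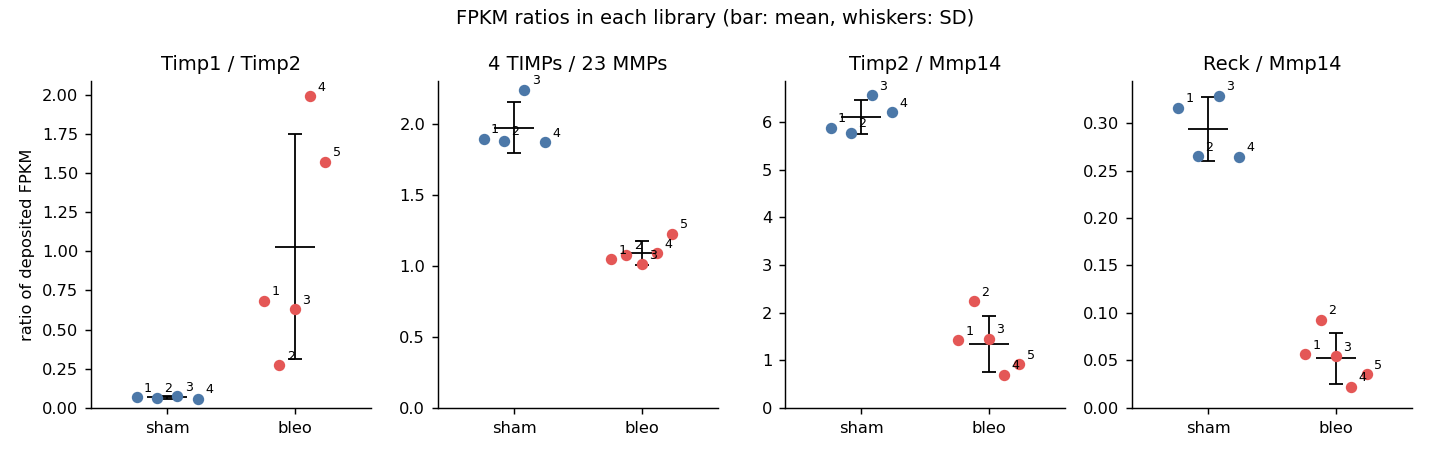
Ratios of deposited FPKM (vertical axes, linear and starting at 0) for Timp1 to Timp2, the 4 TIMPs to the 23 MMPs, Timp2 to Mmp14, and Reck to Mmp14 in 4 aged sham (blue) and 5 aged bleo (red) libraries, numbered by mouse, with mean and SD. The groups are separate in each panel, with Timp2 to Mmp14 at 5.78 to 6.57 in aged sham and 0.698 to 2.24 in aged bleo.

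The ADAM and ADAMTS enzymes, several of which are inhibited by Timp3, had 25 of 27 members tested. Of these, 10 were called higher and 4 lower (median log2 fold change 0.24), beside 12.3% and 11.5% of all tested genes. The largest fitted rises were in Adam12 (3.31, from 6.66 ± 8.32 to 66.6 ± 37.0 CPM), Adamts17 (2.62), and Adamts12 (2.22). Adam33 (log2 fold change -1.86, from 93.3 ± 5.24 to 25.7 ± 14.9 CPM), the aggrecanase Adamts5 (-1.23), and Adamts19 (-0.87, edgeR FDR = 0.0953) were called lower. Of the sheddases, Adam10, which Reck restrains, rose by a log2 fold change of 0.74 (edgeR FDR = 0.00230), and Adam17, a main target of Timp3, was at 124 ± 11.7 and 135 ± 11.6 CPM (log2 fold change 0.12, edgeR FDR = 0.314).

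Of 13 genes for proteins that bind TIMPs or Reck, 12 were tested, 5 were called higher and 3 lower (median log2 fold change 0.37). The shares over all tested genes were 12.3% and 11.5%. The Timp1 receptor component Cd63 rose from 290.2 ± 12.2 to 439 ± 99.2 CPM (log2 fold change 0.60, edgeR FDR = 0.0177), Itgb1 by 0.85, and Cd44 by 1.11. Wnt7b, a ligand that signals through Reck, rose from 0.0839 ± 0.0447 to 1.74 ± 0.931 CPM (log2 fold change 4.33), passing the filter through the aged bleo libraries, and Wnt7a was under the filter. Among the other parts of that receptor, Fzd4 was called lower (log2 fold change -1.21, edgeR FDR = 0.0548), and Adgra2 was at 183 ± 22.1 and 203 ± 35.5 CPM (log2 fold change 0.15, edgeR FDR = 0.456). The Timp3 binding partner Efemp1 fell from 521 ± 62.1 to 151 ± 77.1 CPM (log2 fold change -1.78) and Agtr2 from 5.58 ± 0.810 to 0.957 ± 0.682 CPM (log2 fold change -2.55). Lrp1, the endocytic receptor that clears TIMPs, was at 3326 ± 382 and 2554 ± 613 CPM (log2 fold change -0.38, edgeR FDR = 0.150).

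Other protease inhibitors and enhancers of the matrix were likewise divided, with 3 called higher and 3 lower of 9 tested (10 listed, median log2 fold change -0.22). The shares over all tested genes were 12.3% and 11.5%. Serpine2, an inhibitor of thrombin and plasminogen activators, rose from 187 ± 58.4 to 1283 ± 258 CPM (log2 fold change 2.78), the collagen chaperone Serpinh1 by 0.90, and Tfpi2 by 0.63. Pcolce2, an enhancer of procollagen processing (log2 fold change -1.77), Papln (-1.65), and Pzp (-0.86, edgeR FDR = 0.0943) were called lower.

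Genes listed as regulators of Timp1 were divided in direction. Over all tested genes, 12.3% were called higher and 11.5% lower. Of 14 genes of the AP-1, RUNX, STAT, ETS, and SP families, which were listed as regulators of Timp1 transcription without regard to the window shown above, all were tested, 3 were called higher and 6 lower (median log2 fold change -0.27). The AP-1 genes Fosb (log2 fold change -1.20), Fos (-0.87), and Junb (-0.83) fell, as did Fosl2, Jun, and Jund, whereas Runx1 rose from 11.5 ± 2.31 to 146 ± 37.8 CPM (log2 fold change 3.67), Runx2 by 2.98, and Ets1 by 0.81. Of 12 genes of the IL-6 family and TGF-beta pathways, 3 were called higher and 2 lower (median log2 fold change 0.32). Il11 rose from 1.18 ± 0.241 to 27.0 ± 11.3 CPM (log2 fold change 4.52), Lif from 44.7 ± 7.20 to 200.3 ± 67.7 CPM (2.16), and Tgfb1 from 26.5 ± 1.10 to 109 ± 28.1 CPM (2.04). Il6 fell from 360 ± 60.7 to 129 ± 59.9 CPM (log2 fold change -1.48) and its receptor Il6ra by a log2 fold change of -1.06.

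Markers of fibroblast states differed in direction between the lists. Over all tested genes, 12.3% were called higher and 11.5% lower. All 10 adventitial fibroblast markers were called lower, and their summed CPM was 20906 to 24229 in aged sham and 9882, 12359, 8767, 3543, and 4094 in aged bleo mice 1 to 5. This is the order of Timp2, Timp3, and Reck in these mice, and also that of Syn2, which was called higher. Of 10 alveolar fibroblast markers, 4 were called lower and 2 higher, with a summed CPM of 3924 to 5563 in aged sham. Aged bleo mice 1 to 5 were at 3193, 4432, 3772, 1710, and 2257 CPM, an order that differs only in mice 1 and 3. Of 10 fibrotic fibroblast markers, 8 were called higher, with a summed CPM of 13437 to 15613 in aged sham and 40620 to 59278 in aged bleo. From highest to lowest, this sum ran through aged bleo mice 5, 3, 4, 1, and 2, where Timp1 ran through 4, 5, 1, 3, and 2. Lrrc15, among these 8, passed the count filter only through the aged bleo libraries. The part of these shifts in the levels of the inhibitors was not tested.

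Markers of other cells that can express these inhibitors were measured beside them. Their counts of calls stand beside 12.3% of all tested genes called higher and 11.5% called lower. Of 10 macrophage markers, 6 were called higher, and their summed CPM was 278, 321, 396, and 742 in aged sham mice 1 to 4 and 611, 775, 741, 2124, and 969 in aged bleo mice 1 to 5. From highest to lowest, the aged bleo mice ran 4, 5, 2, 3, 1 for this sum and 4, 5, 1, 3, 2 for Timp1. Of 10 pan-leukocyte markers, 2 were called higher, with a summed CPM of 171, 212, 331, and 620 in aged sham mice 1 to 4 and 201, 245, 299, 984, and 289 in aged bleo mice 1 to 5. None of 7 tested neutrophil markers was called (summed CPM of all 8 at 189 to 1145 and 99.8 to 1010). Of 9 tested endothelial markers, 2 were called higher and 1 lower, and the summed CPM of all 10 was 255 to 298 in aged sham and 89.8 to 144 in aged bleo. Tek alone went from 161 ± 12.9 to 28.9 ± 18.8 CPM, and the median log2 fold change of the tested endothelial markers was -0.025. Of 12 smooth muscle and pericyte markers, 2 were called higher and 3 lower, with a summed CPM of 3386 to 6812 and 2576 to 3936. Epithelial (16.9 to 114 and 21.2 to 65.6 CPM), mesothelial (64.6 to 120 and 43.6 to 144 CPM), and adipocyte (8.80 to 17.1 and 6.86 to 12.5 CPM) sums overlapped. No marker of these lists was at 0 in all libraries, and the part of these cells in the levels of the inhibitors was not tested. Without aged bleo mouse 4, the log2 fold change was 2.54 for Timp1, -0.84 for Timp2, -1.07 for Timp3, and -1.11 for Reck, and all 4 stayed called by edgeR.

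The library names end in a number that the labels do not explain. It is 4 for all aged sham libraries and for aged bleo mouse 4, 5 for aged bleo mice 1 to 3, and 6 for aged bleo mouse 5, so that the number and the treatment can be separated only through that mouse. Among the 5 libraries ending in 4, the log2 fold change of mouse 4 against aged sham was 3.37 for Timp1, -1.54 for Timp2, -2.22 for Timp3, -2.13 for Reck, and -1.61 for Timp4. These are values of 1 aged bleo mouse, which was at an end of the aged bleo order for each of these genes, and they have no test, because the spread in this subset comes from the aged sham mice alone.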

How the data were processed

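RNA-Seq libraries of sorted fibroblasts (4 aged sham, 5 aged bleo) were grouped by their sample labels. The authors deposited 1 table with unnormalized read counts of 43346 genes and FPKM values, which the authors scaled to gene length and library size. The submitters' processing notes name STAR 2.5.2b, Subread, featureCounts, and bcl2fastq. The strand setting and the annotation release are not given in the sources used here. Of 42462 identifiers shared with GENCODE M21 (GRCm38), 78.9% have the same start and end.

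Counts of genes with an average of at least 25 were TMM-normalized and tested with edgeR 4.0.16 in R 4.3.3 without covariates, with calls at the study's thresholds (FDR under 0.10, fold change over 1.5). The prior count of log2 CPM was 2. Alternatives were DESeq2 1.42.0, limma 3.58.1 (limma-trend on log2 CPM, and log2(FPKM + 0.1) or log2(FPKM + 1)), other scalings, filters, and thresholds, libraries left out, and a replicate block. The scripts were tested on simulated data with 200 changed genes. The chi-square per degree of freedom between libraries of 1 group was 30.9 to 468, so none was a duplicate. Limits from counts cover counting error only.

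The members and the 7 pathway and 12 marker lists were chosen with earlier results of these data known. The named genes are the 5 members, up to 3 called genes per direction and pathway list with at least 1 CPM on average, 11 fixed genes, genes overlapping a member, and the 3 nearest genes per member. Pzp, the marker genes, Fosl2, Jun, Jund, and Wnt7a are named besides, after their values were seen.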

Additional observations from a re-analysis of the deposited data

How the results depend on the processing

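Over 23 alternatives, Timp1, Timp3, and Reck kept their direction in each, and their call in each that had more than 1 aged bleo library. Timp2 kept its direction in each and lost its call with the stricter thresholds (FDR under 0.05, fold change over 2), because its log2 fold change of -0.95 is under that fold. Timp4, not called in the reported fit, was called by DESeq2 (log2 fold change -0.64, FDR 0.0972), limma-trend (-0.68, FDR 0.0975), and without aged bleo mouse 1. Among the libraries whose name ends in 4 it was at -1.61, but the spread there comes from aged sham alone and no call is read from it. Leaving out 1 library at a time, log2 fold changes ranged from 2.54 to 2.95 for Timp1, -1.08 to -0.84 for Timp2, -1.45 to -1.07 for Timp3, -1.43 to -1.11 for Reck, and -0.83 to -0.47 for Timp4, the called genes from 3525 to 4597, and the called MMPs from 8 to 10. The 4022 called genes became 1785 with limma on log2(FPKM + 1), 2158 with the stricter thresholds, and 6177 among the libraries whose name ends in 4 (4 aged sham, 1 aged bleo), and the 8 called MMPs became 5 with limma on log2(FPKM + 1). Except for the stricter thresholds, which only remove calls, the cause of these changes was not tested. Of the other lists, the stricter thresholds took the Timp1 regulators from 9 to 3 calls, ADAM and ADAMTS from 14 to 8, partners from 8 to 4, and other inhibitors from 6 to 3. The other inhibitors also went to 3 with limma on log2(FPKM + 1), and the partners to 5 without aged bleo mouse 5, whether or not the replicate block was used. Same-numbered mice of the 2 groups had deviations that correlated at 0.0922, 0.0623, -0.13, and 0.326. The other pairings ran from -0.213 to 0.252, so the mouse 4 pair was the highest of all. The labels state no pairing, and the numbers were not taken to pair mice. With the replicate block over 8 libraries, 3541 genes were called, against 3525 in these libraries without it, an alternative chosen after seeing the data, and Timp2 was at -0.89, Timp3 at -1.23, Reck at -1.24, and Timp4 at -0.67 with the block, these 4 and Timp1 on the same side of the threshold. No other scaling moved the median of all genes by over 0.1 (log2). Timp4 had 40 to 116 counts per library, and its SE of 0.29 was close to that of Timp3 (0.30), which had far more counts.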
